A study of Mus musculus with 8 samples.

Results

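Genes of beta cell dedifferentiation and of endocrine progenitors were followed in cells sorted from the pancreas of NOD mice, a strain prone to autoimmune diabetes. The labels call both populations beta cells, the cells that make the insulin of the body. The genes were Vim, Aldh1a3, Sox9, Sox4, Neurog3, Fev, Gast, Cck, Myc and Mycn, 10 of the 23366 genes in the deposited table. They were picked by name, with earlier results of these data known. All libraries came from NOD mice aged 8 to 10 weeks and no agent was named for either population. The bottom population had 4 libraries and the top population 4, with 2 libraries of each in batch 1 (replicates 1 and 2) and 2 in batch 2 (replicates 3 and 4), and each library was made from about 1000 sorted cells. What separated bottom from top in the sort, and whether the libraries came from separate animals, is not given in the sources used here, so p-values measure the spread between libraries, which may be partly technical.

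During development, cells of the pancreatic epithelium that switch on Neurog3 leave the cell cycle and become endocrine cells, and Sox9, Sox4 and Fev act before, with or after it along that path. In diabetic mice, mature beta cells can lose their identity while regaining genes of earlier stages, a change called dedifferentiation, for which Aldh1a3, Neurog3, Gast and Myc have served as marks. Several of these genes are also active in other cells of the pancreas or gut, Vim in fibroblasts and endothelial cells and Sox9 in duct cells and intestinal crypts.

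Total estimated counts per library ran from 7256042 to 11262368 in bottom and from 6657639 to 9366913 in top. Insulin transcripts (Ins1 and Ins2) took 2.75% to 7.16% of the counts in bottom libraries and 26.6% to 40.1% in top libraries. The 12 beta cell markers checked, led by Ins2 and Ins1, summed to 38800 to 81400 CPM in bottom and 344000 to 506000 CPM in top. Mafa, a factor of mature beta cells, was the 1 marker with 0 counts in all 8 libraries. Whether the annotation used could count Mafa was not tested. Levels are given as CPM, counts per 1000000, after scaling of the libraries by TMM, a method that sets scale factors from the bulk of the genes, and these values are not per length, so they are compared between libraries and not between genes. In bulk samples such as these, fewer cells that express a gene and less of its RNA per cell cannot be told apart. Markers of delta cells (led by Sst and Rbp4) summed to 33400 to 57800 CPM in bottom and 2650 to 5300 CPM in top, and those of PP cells (Ppy and Pyy) to 11300 to 92000 CPM in bottom and 1200 to 2360 CPM in top. Alpha cell markers (Gcg, Ttr) summed to 29500 to 143000 CPM in bottom and 65900 to 139000 CPM in top. The enteroendocrine list (Chgb, Neurod1), which islet cells share in part, summed to 2210 to 3480 CPM in bottom and 1360 to 1650 CPM in top, with Gip, Nts and Insl5 at 0 in all libraries. How far these other cells enter the values of the 10 genes was not tested.

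None of the 10 genes was called different between bottom and top in the edgeR fit, and the call for Vim turned on the processing. Too few counts kept Aldh1a3, Gast, Cck and Mycn out of the test, and among the 6 tested genes 0 were called in the edgeR quasi-likelihood test at an adjusted p under 0.05, where 0.444% of all 11721 tested genes were called, 0.282% higher and 0.162% lower in bottom. At an unadjusted p under 0.05, Vim and Neurog3 were higher in bottom, 2 of 6 where 5.62% of all tested genes were. DESeq2 called both (adjusted p = 9.94e-07 for Vim and 0.0383 for Neurog3), where it called 3.14% of tested genes higher in bottom, and limma-trend called Vim alone (adjusted p = 0.0493), where it called 0.665%. By mean CPM, 9 of the 10 genes were higher in bottom and Gast was lower, a count for which no share over all genes was computed. Aldh1a3 and Cck, with 0 counts in top, could only come out higher in bottom. Without top 4 the mean of Gast too was higher in bottom (0.674 CPM in bottom, 0.544 CPM in top). Vim passed the filter on low counts through the bottom libraries alone, so the filter favoured a positive fold change there. All 6 tested genes had log2 fold changes above 0, as had 50.1% of all tested genes, a count that the filter can tilt in the same way. Since the members were chosen with earlier results known, the shares over all genes are no independent comparison for them.

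**Figure D1:**
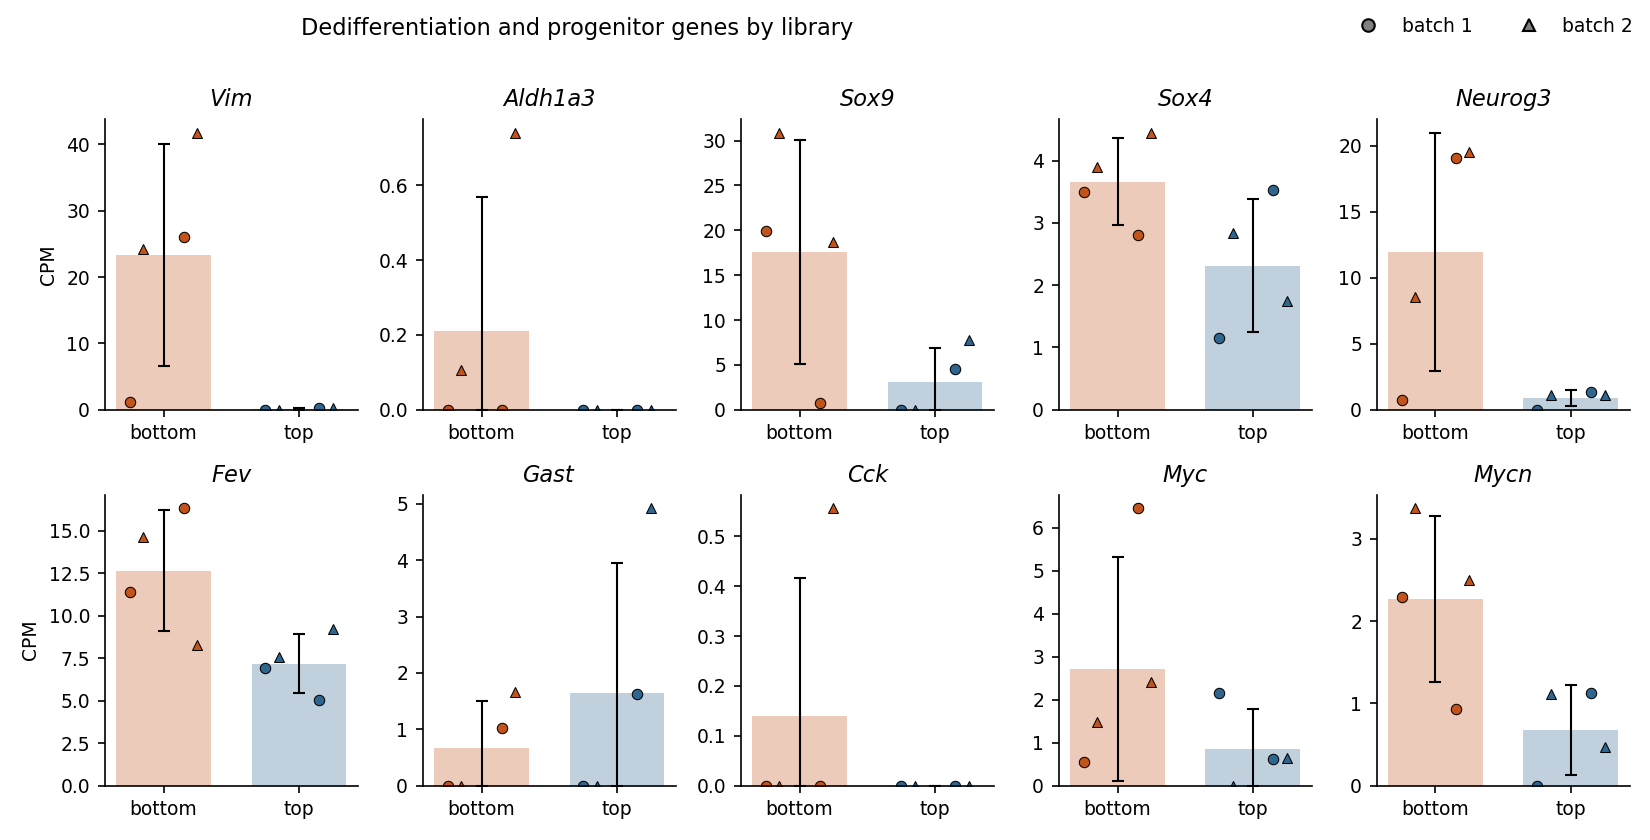
Level of each of the 10 genes in CPM (vertical axis, linear and from 0, scaled per panel) in the bottom and top populations; bars are means of 4 libraries, error bars the SD (cut at 0), circles batch 1 and triangles batch 2. The populations separate fully for Vim, where bottom libraries lie at 1.2 to 41.8 CPM and top libraries at 0 to 0.318 CPM.

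Vim encodes vimentin, an intermediate filament protein of mesenchymal cells. Its level was 1.2, 26.1, 24.3 and 41.8 CPM in bottom 1 to bottom 4, against 0, 0.251, 0 and 0.318 CPM in top 1 to top 4. All bottom libraries lay above all top libraries, with bottom 1 far below the other bottom libraries, and it was the single member whose populations did not overlap, where 3.31% of all tested genes had every bottom library above every top library. Summed counts were 972 in bottom and 4 in top, a ratio of 177 after scaling for library size (95% exact binomial interval 69.1 to 652, counting error only). The log2 fold change, bottom over top, was 7.12 (SE 1.47, edgeR adjusted p = 0.0879). It was 6.55 in batch 1 alone and 7.69 in batch 2 alone. Without bottom 1 the gene passed the threshold (log2 fold change 7.59, edgeR adjusted p = 0.0352), as it did with no filter on low counts (7.10, edgeR adjusted p = 0.0137, beside 0.793% of genes called higher in bottom in that fit). Over all omissions of a library the adjusted p lay between 0.0352 and 0.26.

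Among the bottom libraries, Vim was lowest and highest where the markers of fibroblasts and endothelial cells were. The 10 fibroblast markers summed to 5.68, 241, 268 and 1210 CPM in bottom 1 to bottom 4, against between 0.251 and 12.5 CPM in top. The 8 endothelial markers, led by Emcn and Pecam1, summed to 9.94, 25.1, 37 and 305 CPM in bottom 1 to bottom 4 and to between 0.124 and 8.26 CPM in top. All 18 markers had a count in at least 1 bottom library. Bottom 1 was the lowest bottom library and bottom 4 the highest for Vim and for both sums, while bottom 1 had a lower fibroblast sum than top 4 (5.68 CPM in bottom 1, 12.5 CPM in top 4) and more Vim (1.2 CPM in bottom 1, 0.318 CPM in top 4). Sparc, a matrix protein of fibroblasts, averaged 132 ± 186 CPM in bottom and 0.0397 ± 0.0794 CPM in top (SD, n = 4), and Dcn, the matrix proteoglycan decorin, 120 ± 157 CPM in bottom and 0.0674 ± 0.0781 CPM in top. The summed leukocyte markers, led by Lcp1 and Fcer1g, stood at 5.84 to 8.13 CPM in bottom and 2.54 to 6.18 CPM in top. The part of fibroblast or endothelial RNA in the Vim values was not tested. By Pearson correlation of log2(CPM + 1) over the 8 libraries, the genes most like Vim were Nrp1, a semaphorin and VEGF co-receptor (r = 0.98), the chemokine gene Ccl19 (r = 0.974) and Dcn (r = 0.973). These points share the population difference, so the correlations describe the libraries and carry no test. Of these genes, edgeR called Ccl19 and Dcn higher in bottom (adjusted p = 0.0367 and 0.0356), where it called 0.282% of all tested genes higher. It did not call Nrp1 (edgeR adjusted p = 0.13). Likeness to Vim over both populations picks genes that are higher in bottom. The share over all genes is therefore no fair comparison for these calls.

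Neurog3 encodes the basic helix-loop-helix factor that commits pancreatic progenitors to the endocrine fate. Its level was 0.765, 19.1, 8.53 and 19.5 CPM in bottom 1 to bottom 4, against 0, 1.38, 1.11 and 1.11 CPM in top 1 to top 4. Bottom 2, bottom 3 and bottom 4 lay above every top library, while bottom 1 lay within the range of top. Summed counts were 502 in bottom and 27 in top, a scaled ratio of 13.6 (95% exact binomial interval 9.22 to 20.8, counting error only). The log2 fold change was 3.72 (SE 1.35, edgeR adjusted p = 0.353), with 3.79 in batch 1 alone and 3.65 in batch 2 alone. Leaving out single libraries moved it between 2.53, without bottom 2, and 4.69, without top 2, with adjusted p of 0.226 to 0.645. Bottom 1, the bottom library with little Vim and little Neurog3, carried the intestinal markers, led by Fabp1 and Fabp2, at 32000 CPM in sum, against 7530, 41.5 and 15.1 CPM in bottom 2 to bottom 4, and 56 to 1990 CPM in top. The part of intestinal RNA in the Neurog3 values was not tested. The genes most like Neurog3 over the 8 libraries were 2410006H16Rik (r = 0.979), Zfp326 (r = 0.97) and Hddc2 (r = 0.964), none of which was called between the populations (edgeR adjusted p = 0.559, 0.551 and 0.382).

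The upstream sequences of Vim and Neurog3, the 2 members with an unadjusted p under 0.05, are shown as the stretch next to the start of each transcript. They are the 250 bases before the annotated start from RefSeq on GRCm38.p6, matched by symbol, since the deposited table carries no coordinates and the submitters' processing notes name another build, mm9. The table of upstream sequences held 7 of the 10 genes. Vim lies at chr2:13574061-13574310 (+ strand) and Neurog3 at chr10:62132840-62133089 (+ strand). Capitals mark matches, on either strand, to the CCAAT box (CCAAT or ATTGG), the TATA box (TATAAA or TTTATA) and the E-box CAGCTG, and the E-boxes CACGTG and CAGATG (or CATCTG) and the GC box (GGGCGG or CCGCCC) were also searched.
Vim: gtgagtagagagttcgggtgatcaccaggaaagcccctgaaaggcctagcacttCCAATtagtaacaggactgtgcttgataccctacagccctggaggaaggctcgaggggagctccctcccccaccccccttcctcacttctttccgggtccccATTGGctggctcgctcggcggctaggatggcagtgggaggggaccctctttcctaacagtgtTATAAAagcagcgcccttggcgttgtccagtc
Neurog3: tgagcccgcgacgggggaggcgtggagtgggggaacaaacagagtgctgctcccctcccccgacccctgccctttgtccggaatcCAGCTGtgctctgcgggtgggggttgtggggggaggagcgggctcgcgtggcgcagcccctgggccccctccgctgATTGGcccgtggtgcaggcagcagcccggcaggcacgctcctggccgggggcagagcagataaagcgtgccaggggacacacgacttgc
The Vim sequence held the CCAAT box 196 and 94 bases before the start and the TATA box 32 bases before it. The Neurog3 sequence held CAGCTG, a motif class that basic helix-loop-helix factors bind, 165 bases before the start and the CCAAT box 89 bases before it. Of 32851 such upstream windows in the table, 33.8% held the CCAAT box, 12.4% the TATA box, 13% CAGCTG, 14.4% CAGATG or CATCTG, 6.02% CACGTG and 32.7% the GC box. The matched motifs do not overlap one another in either window, and a match describes the letters and no binding.

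**Figure D2:**
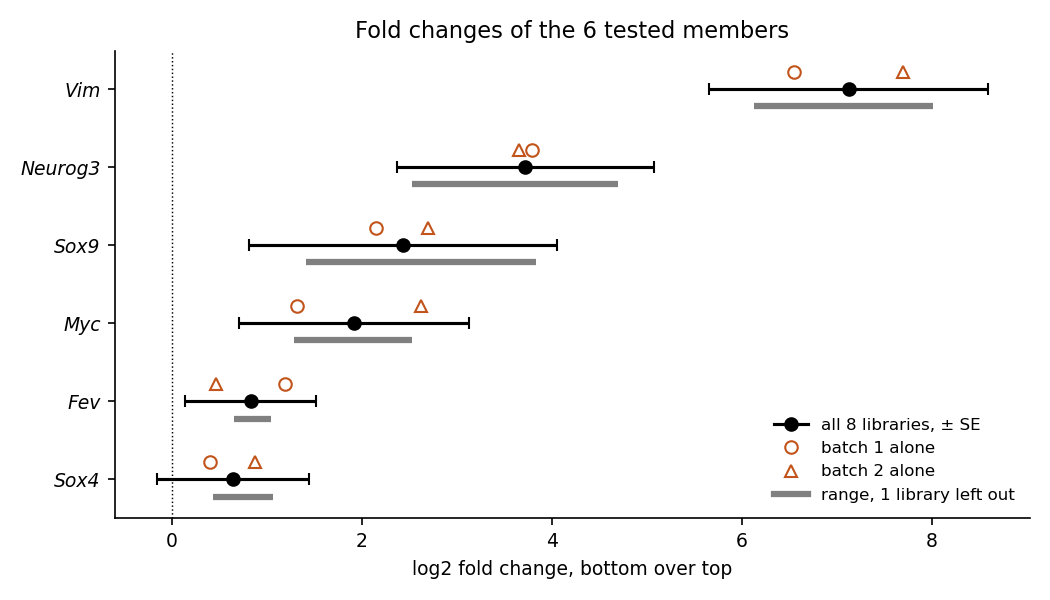
Log2 fold change of bottom over top (horizontal axis) for the 6 tested genes: black points with SE from all 8 libraries, open circles batch 1 alone, open triangles batch 2 alone, grey bars the range when 1 library was left out. All estimates lie above 0 and the bars differ in length, with Vim at 7.12 and Sox4 at 0.64.

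Sox9, a factor of pancreatic progenitors that adult duct cells keep, varied strongly inside both populations. It stood at 19.9, 0.748, 30.9 and 18.7 CPM across bottom 1 to bottom 4, against 0, 4.52, 0 and 7.78 CPM in top 1 to top 4. The populations overlapped because bottom 2 lay below top 2 and top 4. The summed counts of 685 in bottom and 85 in top gave a scaled ratio of 5.88 (95% exact binomial interval 4.69 to 7.46, counting error only), and the log2 fold change was 2.43 (SE 1.62, edgeR adjusted p = 0.703). It ranged from 1.41 without bottom 1 to 3.83 without top 2, and was 2.15 in batch 1 alone and 2.69 in batch 2 alone. Duct markers, 8 genes led by Epcam and Spp1, summed to 1330, 790, 1200 and 741 CPM in bottom 1 to bottom 4 and to 294, 347, 337 and 619 CPM in top 1 to top 4. The highest duct sums, in bottom 1 and bottom 3 and in top 4, fell in the libraries with the most Sox9 of their population, while bottom 2 and bottom 4 had similar duct sums and Sox9 levels of 0.748 and 18.7 CPM. The part of duct RNA in the Sox9 values was not tested. The library patterns most like Sox9 were those of Csrp2, a LIM-domain protein (r = 0.96), Mapt, the microtubule protein tau (r = 0.95), and Etv5, an ETS factor (r = 0.942, n = 8 libraries each).

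Sox4, a related factor that also acts in endocrine differentiation and stays on in adult islets, was steadier. Its level was 3.5, 2.8, 3.9 and 4.45 CPM in bottom 1 to bottom 4, against 1.15, 3.52, 2.84 and 1.75 CPM in top 1 to top 4. Only bottom 3 and bottom 4 lay above every top library. The log2 fold change was 0.64 (SE 0.80, edgeR adjusted p = 0.874, and 0.43 to 1.06 over the omissions of a library). Its closest library patterns belonged to Zfp706 (r = 0.928), the dynein light chain gene Dynll1 (r = 0.92) and Haus3, an augmin subunit of the spindle (r = 0.899).

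Fev, an ETS-family factor that follows Neurog3 in endocrine progenitors and is best known from serotonergic neurons, was counted in every library. It stood at 11.4, 16.3, 14.6 and 8.25 CPM across bottom 1 to bottom 4, against 6.91, 5.02, 7.54 and 9.21 CPM in top 1 to top 4. Bottom 1 to bottom 3 lay above all top libraries and bottom 4 below top 4. The mean was 12.6 ± 3.56 CPM in bottom and 7.17 ± 1.73 CPM in top (SD, n = 4), and the log2 fold change was 0.83 (SE 0.69, edgeR adjusted p = 0.783). Batch 1 alone gave 1.19 and batch 2 alone 0.46. The order of the bottom libraries was not that of Neurog3, since bottom 4 had the lowest Fev and the highest Neurog3 among them. The genes most like Fev were 1190002N15Rik (r = 0.949), Tomm70a, a receptor of the mitochondrial import pore (r = 0.948), and Rfc2, a subunit of the replication clamp loader (r = 0.939).

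Aldh1a3, the retinaldehyde dehydrogenase that marks failing beta cells in diabetic mice, was near the detection limit. Bottom 1 to bottom 4 had 0, 0, 1 and 8 counts, and all 4 top libraries had 0. The 9 bottom counts came from the batch 2 libraries, and 8 of them from bottom 4, the library with the highest fibroblast and endothelial sums. Against a floor of 3 counts over the top population, the 9 bottom counts gave a scaled ratio of 2.19. It takes the bottom counts as exact, so it is no lower bound, and it rests on bottom 4. The 95% exact binomial interval of the ratio, which covers counting error only, starts at 1.44. With no filter on low counts the edgeR adjusted p was 0.768.

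The peptide hormone genes were sparse too. Gast, the gastrin gene of stomach G cells and of fetal islets, had 0, 11, 0 and 18 counts in bottom 1 to bottom 4, and 0, 13, 0 and 31 counts in top 1 to top 4. In CPM these were 0, 1.03, 0 and 1.67 in bottom and 0, 1.63, 0 and 4.92 in top. Replicates 1 and 3 were at 0 and replicates 2 and 4 were not, in either population. The scaled ratio of the sums, 29 counts in bottom and 44 in top, was 0.481 (95% exact binomial interval 0.29 to 0.786, counting error only), and edgeR with no filter on low counts gave a log2 fold change of -1.13 (SE 2.08, adjusted p = 0.909). The direction of the means turned on top 4, without which they were 0.674 CPM in bottom and 0.544 CPM in top. In each batch, though, the bottom library with counts lay below the top library with counts. In the 5 omissions of another library where Gast passed the filter, its log2 fold change stayed below 0 (-2.38 to -0.61). Cck, the cholecystokinin gene of the same peptide family, had 6 counts in bottom 4 and 0 in each of the other 7 libraries. The 95% exact binomial interval of its ratio starts at 0.86, so a difference was not detectable at this depth, and edgeR with no filter on low counts gave an adjusted p of 0.805.

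Myc and Mycn encode basic helix-loop-helix leucine zipper factors that pair with Max and drive growth and proliferation. Myc stood at 0.546, 6.45, 1.47 and 2.41 CPM across bottom 1 to bottom 4, against 2.16, 0.628, 0 and 0.635 CPM in top 1 to top 4. The populations overlapped, with bottom 1 below 3 of the 4 top libraries and top 1 above bottom 1 and bottom 3. The log2 fold change was 1.92 (SE 1.21, edgeR adjusted p = 0.674), 1.31 in batch 1 alone and 2.62 in batch 2 alone. The bottom mean of 2.72 CPM was 1.48 CPM without bottom 2, and the log2 fold change was then 1.28. Like Neurog3, Myc was highest in bottom 2 and bottom 4 and lowest in bottom 1 among the bottom libraries. The genes most like Myc were Pola1, a subunit of the replicative DNA polymerase alpha (r = 0.942), the RNA methyltransferase gene Ftsj1 (r = 0.934) and Zfp90 (r = 0.932). Mycn, which embryonic progenitors use, stood at 2.29, 0.935, 3.37 and 2.5 CPM across bottom 1 to bottom 4, against 0, 1.13, 1.11 and 0.476 CPM in top 1 to top 4. Bottom 1, bottom 3 and bottom 4 lay above every top library, and bottom 2, where Myc was highest, lay below top 2 and top 3. Its sums of 90 counts in bottom and 21 in top gave a scaled ratio of 3.13 (95% exact binomial interval 1.93 to 5.3, counting error only), and edgeR with no filter on low counts gave a log2 fold change of 1.64 (SE 1.67, adjusted p = 0.831).

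**Figure D3:**
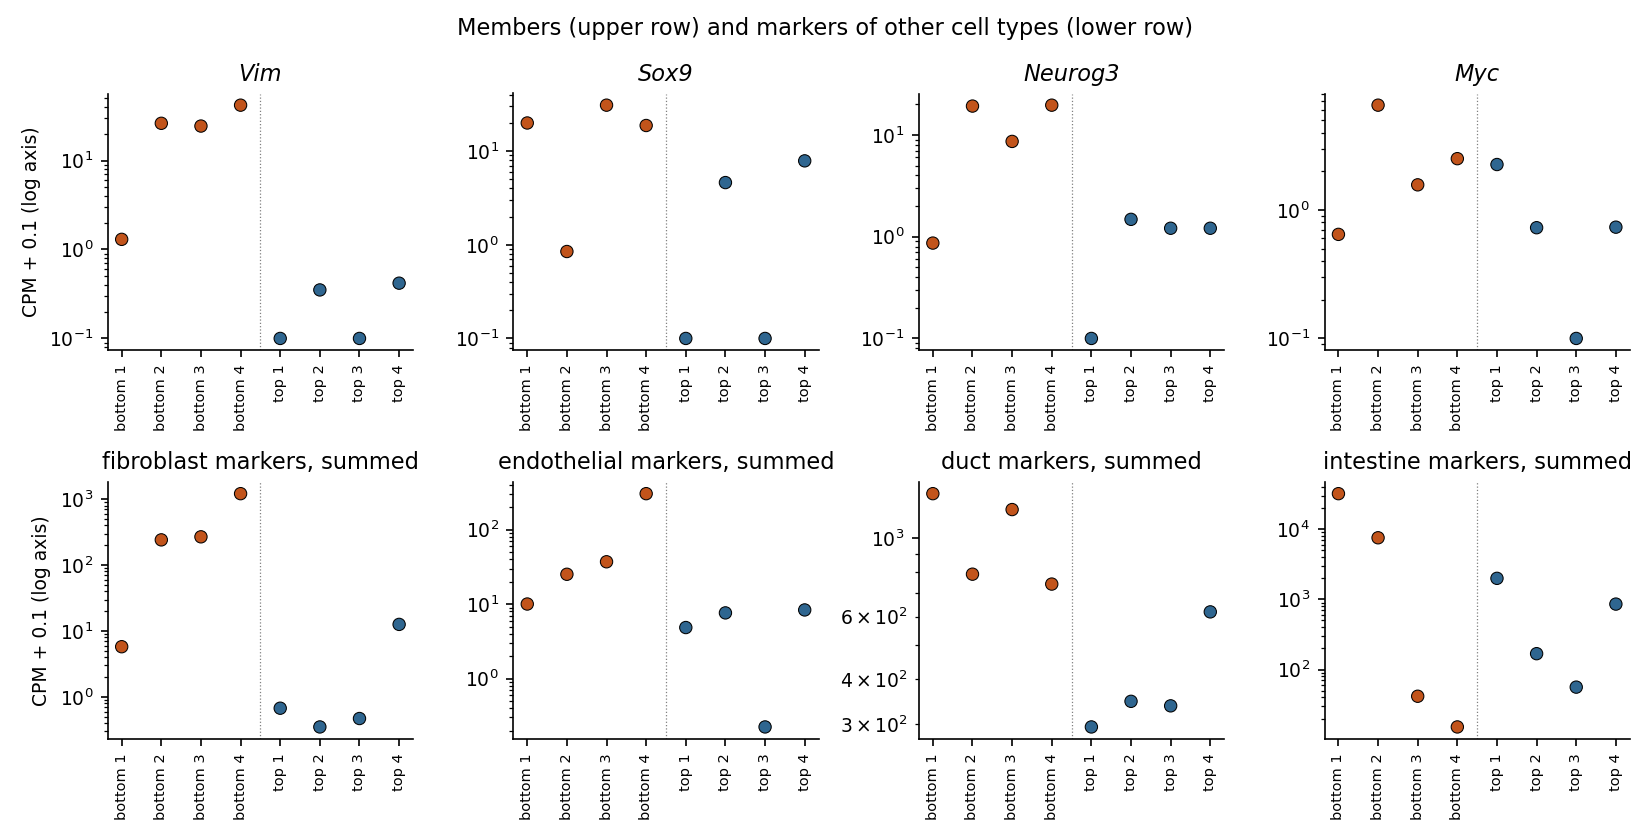
Upper row: Vim, Sox9, Neurog3 and Myc in each library; lower row: summed markers of fibroblasts, endothelial cells, duct cells and intestine; vertical axes are CPM + 0.1 on a log scale, bottom in orange and top in blue. Bottom 1 has the least Vim and fibroblast signal of the bottom libraries (1.2 and 5.68 CPM) and the highest intestinal sum (32000 CPM).

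The members did not share one pattern over the bottom libraries. Vim, Neurog3 and Myc were lowest in bottom 1, Sox9, Sox4 and Mycn were lowest in bottom 2, and Fev in bottom 4. The population difference did not differ detectably between batches for any of the 6 tested genes (edgeR interaction test, 0 called, 0 at an unadjusted p under 0.05, lowest adjusted p = 0.976). Among all 11721 tested genes 0 were called (0.0%) and 885 had an unadjusted p under 0.05 (7.55%), while with no filter on low counts 73 of 17397 genes were called (0.42%), 0 of them members. The estimated difference between batches for Vim was 1.10 on the log2 scale with an SE of 2.83, so a difference of that order would not be detectable here.

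Other genes of these pathways gave few calls. Their lists were chosen with earlier results of these data known, so the counts are descriptions and no test. Over all tested genes the median log2 fold change was 0. Among other endocrine progenitor genes, 17 of 22 were tested, 0 were called by edgeR, and the median log2 fold change was -0.22, with 2 higher and 2 lower at an unadjusted p under 0.05, where 5.62% of all tested genes were higher and 4.63% lower. DESeq2 called 1 higher (3.14% of all) and limma-trend 0. Runx1t1, a corepressor switched on in endocrine progenitors, averaged 135 ± 45.1 CPM in bottom and 63.8 ± 7.18 CPM in top (SD, n = 4, edgeR adjusted p = 0.254). Nkx2-2, an islet lineage factor, averaged 9.25 ± 3.42 CPM in bottom and 28.2 ± 8.17 CPM in top (SD, n = 4, edgeR adjusted p = 0.337), and its bottom libraries all lay below its top libraries, as for 3.91% of all tested genes. Neurod1, a direct target of Neurog3, averaged 243 ± 75 CPM in bottom and 352 ± 65.7 CPM in top (SD, n = 4, edgeR adjusted p = 0.601).

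Pluripotency and stem-like genes had a median log2 fold change of 1.19, with all 9 tested genes of 15 in the table above 0, as were 50.1% of all tested genes, and 0 called by edgeR. At an unadjusted p under 0.05, 4 were higher and 0 lower (5.62% of all tested genes were higher), DESeq2 called 3 higher (3.14% of all) and limma-trend 1 (0.665% of all). This list too was chosen with earlier results known, so these shares are no independent comparison. Cd44, the hyaluronan receptor, stood at 153, 124, 394 and 285 CPM across bottom 1 to bottom 4, against 9.64, 40.9, 82.9 and 78.9 CPM in top 1 to top 4 (log2 fold change 2.26, SE 0.43, edgeR adjusted p = 0.068). All bottom libraries lay above all top libraries for Cd44, as for 3.31% of all tested genes. Alcam, an adhesion molecule, averaged 243 ± 103 CPM in bottom and 105 ± 43.3 CPM in top (SD, n = 4, edgeR adjusted p = 0.163).

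In the retinoic acid pathway, which Aldh1a3 feeds, 8 of 18 genes were tested and 0 called by edgeR (median log2 fold change 0.42). At an unadjusted p under 0.05, 1 gene was higher and 0 lower, where 5.62% of all tested genes were higher. DESeq2 called 1 higher (3.14% of all), and limma-trend called 0. The gene was Dhrs3, a retinaldehyde reductase, at 63.7, 2.34, 2.53 and 28.1 CPM in bottom 1 to bottom 4, against 0.124 to 0.635 CPM in top (edgeR adjusted p = 0.139). Of 17 other Sox genes 4 were tested, with 0 called by edgeR, DESeq2 or limma-trend and 0 at an unadjusted p under 0.05. Sox11, a close relative of Sox4, stood at 3.39, 0.0935, 6.32 and 22.1 CPM across bottom 1 to bottom 4, against 0 to 1.27 CPM in top (edgeR adjusted p = 0.541), and Sox13 averaged 6.31 CPM in bottom and 1.78 CPM in top (edgeR adjusted p = 0.637).

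Genes of serotonin handling, which Fev controls in neurons, had values below 0 in all 4 tested genes of 14 (median log2 fold change -1.21). Of all tested genes, 50.1% had values above 0. EdgeR called 0, with 0 higher and 2 lower at an unadjusted p under 0.05, where 4.63% of all tested genes were lower. DESeq2 called 2 lower, where it called 1.87% of all tested genes lower, and limma-trend 1, where it called 0.503%. Maob, a monoamine oxidase, averaged 66.2 ± 50.3 CPM in bottom and 260 ± 64.6 CPM in top (SD, n = 4, log2 fold change -2.17, edgeR adjusted p = 0.109). Ddc, the decarboxylase that makes serotonin and dopamine, averaged 187 ± 170 CPM in bottom and 480 ± 130 CPM in top (SD, n = 4, edgeR adjusted p = 0.217). Among gut and neural peptides and the cholecystokinin receptors, 5 of 16 genes were tested, with a median log2 fold change of -2.16 and 0 called by edgeR. At an unadjusted p under 0.05, 1 was higher (5.62% of all tested genes) and 1 lower (4.63% of all). DESeq2 called 1 higher (3.14% of all) and 1 lower (1.87% of all), while limma-trend called 1 lower (0.503% of all). Npy, neuropeptide Y, averaged 43.9 ± 27.6 CPM in bottom and 208 ± 72.6 CPM in top (SD, n = 4, edgeR adjusted p = 0.139). Sct, the secretin gene of enteroendocrine cells, stood at 475, 4.58, 1.05 and 1.95 CPM across bottom 1 to bottom 4, against 0 to 0.318 CPM in top (edgeR adjusted p = 0.18), and bottom 1 was also the library with the highest intestinal sum.

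Among intermediate filament and mesenchymal genes, to which Vim belongs by function, 11 of 18 were tested, with a median log2 fold change of 0.9. EdgeR called 1 higher, where it called 0.282% of all tested genes higher, and 0 lower. At an unadjusted p under 0.05, 2 were higher (5.62% of all) and 0 lower. DESeq2 called 1 higher (3.14% of all) and limma-trend 1 (0.665% of all). The gene called was Krt8, a keratin of simple epithelia, which rose to 709, 499, 427 and 372 CPM in bottom 1 to bottom 4, against 149, 132, 180 and 176 CPM in top 1 to top 4 (log2 fold change 1.64, SE 0.27, edgeR adjusted p = 0.0462). DESeq2 (adjusted p = 3.68e-05) and limma-trend (adjusted p = 0.0146) also called Krt8. So did edgeR with no filter on low counts (adjusted p = 0.0107), no batch term (0.0435) or insulin left out of library sizes (0.047). EdgeR no longer called it without any 1 library other than bottom 1 (adjusted p 0.0966 to 0.188), nor with DESeq2 size factors (0.0507). Nor did edgeR call it in batch 1 alone (adjusted p = 0.325), in batch 2 alone (0.274) or with a block from batch and title number (0.653). Bottom 1, with the least Vim among the bottom libraries, had the highest Krt8. Of the MYC network, 13 of 14 genes in the table were tested, with 0 called by any of the tools edgeR, DESeq2 and limma-trend. None had an unadjusted p under 0.05 in edgeR, and the median log2 fold change was 0.36. Mycl1, the remaining family member, stood at 3.93, 0, 2.74 and 16.1 CPM across bottom 1 to bottom 4, against 3.16, 0, 0 and 0 CPM in top 1 to top 4 (edgeR adjusted p = 0.776), and Mlxipl, the glucose-responsive factor ChREBP, averaged 84.3 ± 7.83 CPM in bottom and 124 ± 65.3 CPM in top (SD, n = 4, edgeR adjusted p = 0.768). Of 20 MYC target genes, all tested, 0 were called by edgeR and the median log2 fold change was -0.2. At an unadjusted p under 0.05, 0 were higher and 1 lower, where 4.63% of all tested genes were lower. DESeq2 called 1 lower (1.87% of all) and limma-trend 0. Ccnd2, cyclin D2, averaged 429 ± 170 CPM in bottom and 963 ± 186 CPM in top (SD, n = 4, edgeR adjusted p = 0.18), and Eif4e, the cap-binding translation factor, 97 ± 29.4 CPM in bottom and 155 ± 39 CPM in top (edgeR adjusted p = 0.548). No list median changed sign with DESeq2 size factors or with insulin left out of the library sizes.

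**Figure D4:**
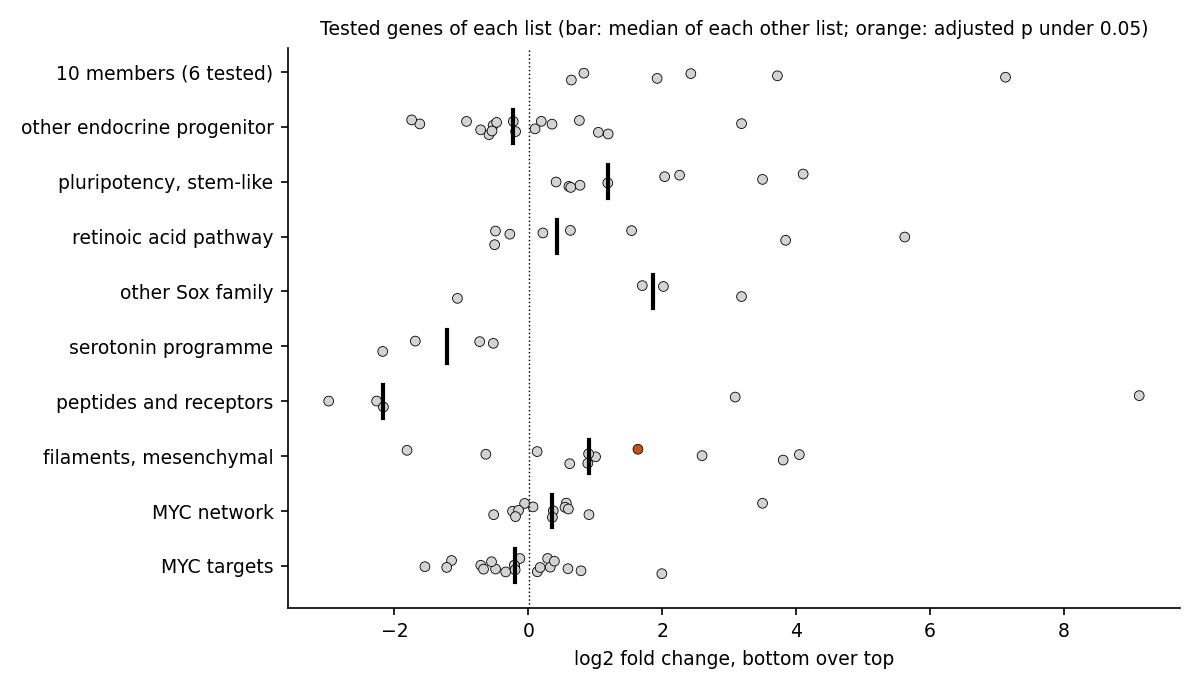
Log2 fold change of bottom over top (horizontal axis) for each tested gene of the 10 members and of 9 lists of related genes, with the median of each other list as a bar and the median of all tested genes as a dotted line. The pluripotency and stem-like genes all lie above 0 with a median of 1.19, the serotonin genes all lie below 0, and Krt8 is the called gene. Members and lists were chosen with earlier results of these data known.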

How the data were processed

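The authors deposited expected counts, RSEM's estimates of reads per gene, as 1 table per library and 1 joint table, which differed by 0. The submitters' processing notes name RSEM, edgeR and the mouse build mm9; versions, the aligner and the annotation are not given in the sources used here. Per the labels' protocols, cDNA from about 1000 cells was amplified with the SMARTer Ultra Low kit and tagmented with Nextera XT. The kit adds no molecular identifiers that the labels mention, so reads were not treated as single molecules, and intervals cover counting error only. The floor of 3 counts covers that of the top counts alone.

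Expected counts, 34.8% of which were not whole, were rounded. edgeR 4.0.16 in R 4.3.3 compared bottom with top by its quasi-likelihood test on 11721 genes kept by filterByExpr, with TMM scaling and the batch as covariate, and p-values were adjusted by Benjamini-Hochberg over all tested genes. Positive log2 fold changes mean higher in bottom, and the SE is the log2 fold change divided by the root of F. No strand setting is given in the sources used here, so reads of antisense neighbours that overlap a gene may count towards it. The fit was tested on simulated data. Alternatives used DESeq2 1.42.0, limma 3.58.1, other scaling, filters and covariates, and omission of each library. All members are named, in related lists every called gene or otherwise the 2 with the smallest p, in marker lists the 2 of highest CPM, and for likeness the 3 tested genes of mean CPM of at least 5 with the highest correlation. Members and lists were chosen with earlier results of these data known, and Neurod1 was taken from a marker list. A few genes and the marker lists they lead are not reported here.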

Additional observations from a re-analysis of the deposited data

Results flagged for a closer look

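Of the gene and population groups of 4 libraries, 18 had any range and were checked, and 2 showed a library whose gap to the next passed Dixon's 95% critical share of the range. Chance gives about 1 in 20 for continuous values, a rate that does not hold for counts as sparse as these. Aldh1a3 stood at 0.741 CPM in bottom 4, 8 of the 9 counts in that population. Cck stood at 0.556 CPM in bottom 4, the 6 counts that were all of its counts in the series, so the gap follows from 1 library holding them. Bottom 4 also had the highest summed fibroblast markers (1210 CPM) and endothelial markers (305 CPM), whose part in these counts was not tested.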

How the results depend on the processing

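None of the 6 tested members changed sign under the 17 alternatives, and of 102 member values 97 kept their side of the threshold while 5 newly passed it. The members called were 2 in DESeq2, 1 in limma-trend, 1 with no filter on low counts and 0 to 1 over the omissions of a library. Over all genes, edgeR called 52, and 587 were called by DESeq2, 137 by limma-trend, 206 with no filter, 32 with no batch term, 2 in batch 1 alone, 2 in batch 2 alone and 8 to 60 over the omissions (8 without top 2, 60 without bottom 1). Genes of the related lists called were 1 in edgeR, 0 with DESeq2 size factors, 11 in DESeq2, 4 in limma-trend, 7 with no filter, 0 in either batch alone and 0 to 4 over the omissions. The cause of these changes was not tested. The omissions and the single batches also had fewer libraries, and the part of that was not tested either. With a replicate block made of the batch and the title numbers, edgeR called 0 of all genes and 0 of the related lists, a fit in which the populations meet inside a block in the libraries numbered 1 alone. It moved the log2 fold change of Sox9 to 10.8 and that of Vim to 9.72, neither called. In each batch and population, the difference between the library numbered 1 and the other library was taken for every tested gene. These differences correlated between bottom and top at r = 0.0874 in batch 1 and 0.000479 in batch 2. The other library is numbered 2 in bottom and 3 in top, so these values cannot show whether same-numbered libraries deviate together. The main fit did not use the numbers as pairs. The interaction with batch called 0 members with and without the filter, and 0 of 11721 genes with it and 73 of 17397 without it. Depth limits Aldh1a3, Cck, Gast and Mycn, which had 6 to 90 summed counts in bottom and 0 to 44 in top.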

Other observations

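Gast had 0 counts in the 4 libraries numbered 1 in their titles, bottom 1, bottom 3, top 1 and top 3. It had 11 to 31 counts in each of the other 4. Those are numbered 2 in bottom and 3 in top, so 1 is the only number that the populations share. Of 17397 genes with a count in any library, 11 were at 0 in all libraries numbered 1 and counted in all others, and 8 showed the reverse. With at least 10 counts in each counted library, 2 genes did so, Gast and Il4i1, an amino acid oxidase of immune cells, and 0 showed the reverse. These genes were chosen after their values were seen. What the number in the titles stands for is not given in the sources used here, and its part in the Gast values was not tested.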
